A study of Rattus norvegicus with 16 samples.

Results

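Carbonic anhydrases were followed across 4 nutritional states in liver of 16 male Sprague Dawley rats, 1 array per animal and 4 animals per group. Of 8 family members listed for this account, 7 have a row with exactly 1 gene symbol among the 13215 genes that have such a row: Car2, Car3, Car4, Car5a, Car5b, Car8 and Car14. Car1 has no such row and is not analysed here. Each of the 7 has 1 row, so taking the brightest row of a gene made no choice between rows. Car3 was chosen by its measured difference between P3 and the other groups on these same arrays, so its values are a description, with no test. The other 6 genes are listed because they belong to its family, and their differences were tested. The groups were rats that had eaten (fed), rats taken to phase 2 of a fast (P2), rats taken to phase 3 of it (P3), and rats that reached phase 3 and then ate again for 2 days (P3r2). No genotype or drug is named for any group. P3r2 animals went through the whole fast first, and how long each fast lasted is not given in the sources used here. In phase 2 of a long fast the body burns mainly fat and spares protein, and in phase 3 protein breakdown rises.

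Carbonic anhydrases interconvert carbon dioxide and water with bicarbonate and a proton. Most are zinc enzymes. They differ in speed and in place: some are soluble in the cytosol, some lie in mitochondria, some sit on the outer face of the plasma membrane or are secreted, and a few have lost the catalytic site. In liver, bicarbonate made in mitochondria feeds carbamoyl phosphate synthase for urea and pyruvate carboxylase for glucose, and bicarbonate in the cytosol feeds acetyl-CoA carboxylase for fatty acids. Car3, a slow cytosolic enzyme with reactive cysteines, is among the abundant proteins of male rat liver and is also a major protein of fat and of slow muscle fibres.

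Values are log2 signals of whole transcript clusters, the array's units for a gene, so 1 unit is a 2-fold change. Differences are given with the standard error of 1 limma fit over all 16 arrays. A gene was called when its adjusted p (limma, Benjamini-Hochberg over 18884 rows) was below 0.05. Pairs of arrays of the same group had correlations of 0.966 to 0.992 over all rows tested, pairs of different groups 0.912 to 0.985, and array medians lay between 4.34 and 4.46. Array weights were lowest in fed replicate 2, P2 replicate 4 and P3 replicate 3 (0.39, 0.41 and 0.38), which also had the narrowest spread of values in their groups. Hepatocyte markers were bright in every array: the mean of the 6 measured of 8 listed lay between 12.43 and 12.92. In pieces of whole liver, fewer cells of a type and less RNA per cell cannot be told apart. Signals of different genes depend on their own probes, so groups are compared only within a gene. The median of an array and the levels of other genes are named only to mark bright or dim signals.

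**Figure D1:**
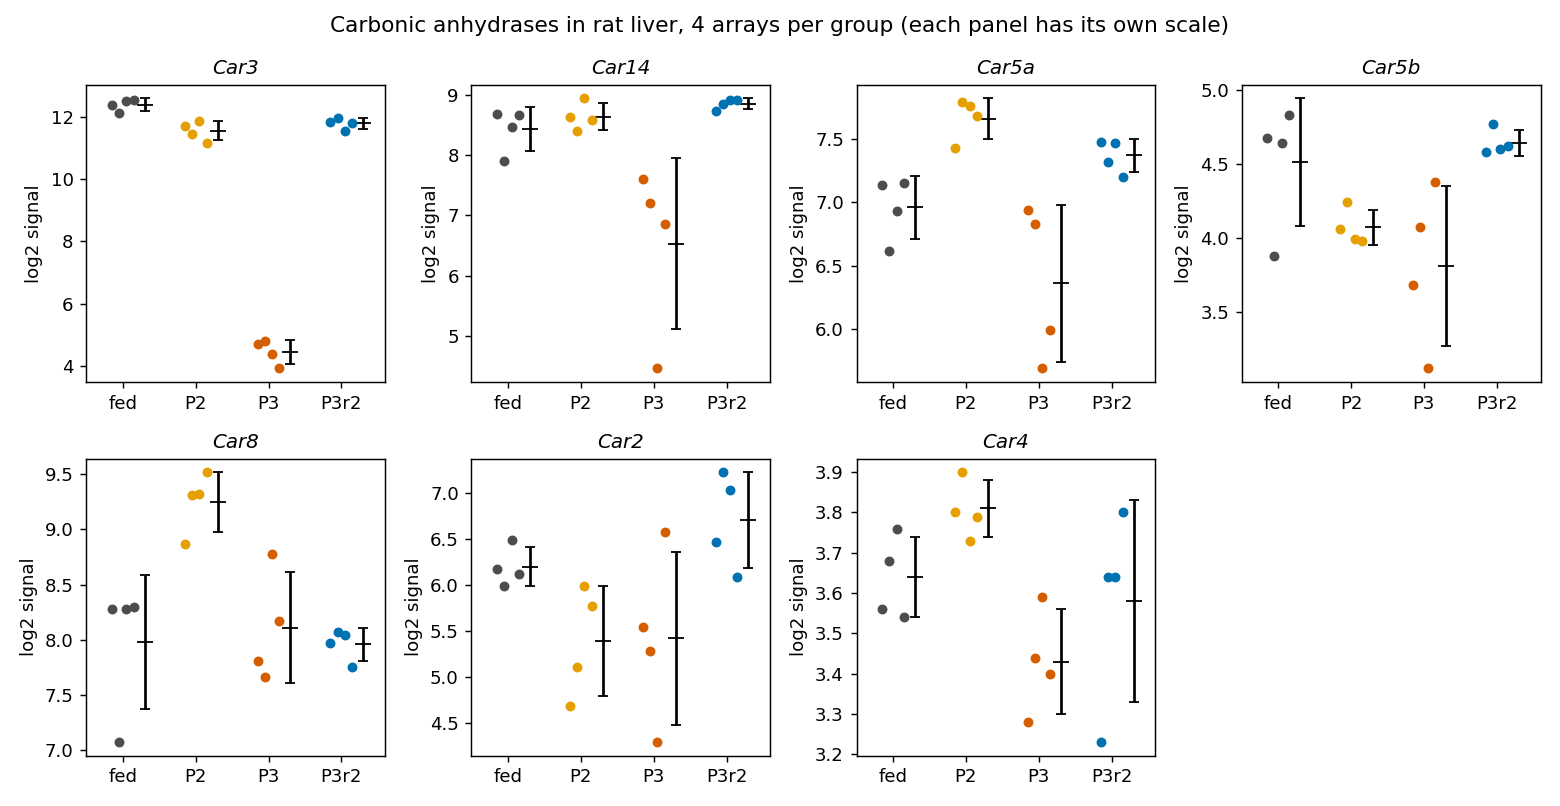
Log2 signal (vertical axis, own scale in each panel) of 7 carbonic anhydrases in the 4 groups (horizontal axis). Each point is 1 array, and the bar beside the points is the group mean with its SD over 4 arrays. Car3 lay between 3.92 and 4.79 in P3 and above 11 in all other arrays, and Car8 was highest in P2.

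Car3 (transcript cluster 7206114) was present at high signal in fed liver and at low signal at phase 3. Its log2 signals were 12.39, 12.11, 12.51 and 12.55 in the fed livers and 11.70, 11.45, 11.88 and 11.16 at P2. They were 4.71, 4.79, 4.38 and 3.92 at P3 and 11.84, 11.96, 11.54 and 11.81 after re-feeding. The 4 P3 arrays stand far below the other 12 and at about the median of all rows of an array. The table has no detection call, so whether any Car3 signal at P3 lies above background is not known here, and percentages and folds that involve P3 can only be read as limits. The group means were 12.39 ± 0.20 (SD, n = 4) in fed, 11.55 ± 0.31 at P2, 4.45 ± 0.39 at P3 and 11.79 ± 0.18 in P3r2.

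On the linear scale, the mean Car3 signal at P2 was 55.8% of that in fed liver, at P3 it was at most 0.408%, and in P3r2 it was 65.9%. The step between the phases of fasting (-7.10 ± 0.19 log2 units, at least 137-fold) was thus far larger than the step from fed to P2 (-0.84 ± 0.19). P3 against fed had a difference of -7.94 ± 0.19, or at least 245-fold. Re-fed livers stood 7.34 ± 0.19 above P3. Their range remained below that of the fed livers without overlap (-0.60 ± 0.19). P2 and P3r2 did overlap, with means 0.24 ± 0.19 apart, so the order of the groups was fed, then P3r2 and P2, then P3. The comparisons share groups and are not independent of each other. Leaving out any single array moved the P3 against fed difference only between -8.05 and -7.76.

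Fat and muscle are the other rich sources of Car3, and their markers were checked as a measure of admixed tissue. None of 7 measured of 8 listed muscle fibre markers was called in P2 or P3 against fed (12.7% and 19.3% of all rows were called). In either comparison 0 of the 7 had an unadjusted limma p below 0.05. Their mean lay between 4.37 and 4.57 in fed and between 4.36 and 4.70 at P3. Of 6 measured of 8 adipocyte markers 1 was called in P3 against fed (19.3% of all rows were called), and 2 had an unadjusted limma p below 0.05. The 1 called was Cidec (-1.75 ± 0.25, adjusted p = 1.1e-04), a lipid droplet protein that hepatocytes also make. The mean of the 6 lay between 4.28 and 4.55 in fed and between 4.07 and 4.27 at P3. Adipoq, the adipocyte hormone adiponectin, had mean signals of 2.74 in fed and 2.66 at P3, and Plin1, the coat protein of adipocyte fat droplets, had 4.57 and 4.71. Fabp4, the fatty acid binding protein of adipocytes and macrophages, had 2.65 and 3.50 (0.86 ± 0.35, adjusted p = 0.11) and fell by 1.11 ± 0.35 in P3r2 against P3 (adjusted p = 0.039). The part of fat tissue in the Car3 differences was not tested.

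Genes whose signals followed Car3 most closely were ranked by Pearson correlation over the 16 arrays, among genes brighter than the median row. The 5 highest were Adtrp (r = 0.991), an enzyme that splits fatty acid esters of hydroxy fatty acids, Inhbc (0.989), a subunit of activin C made by hepatocytes, Bdh1 (0.988), the mitochondrial enzyme of 3-hydroxybutyrate, Tram1 (0.987), a protein of the endoplasmic reticulum translocation channel, and Dio1 (0.984), which activates thyroxine. The 3 lowest were Fst (-0.992), follistatin, Gadd45b (-0.991), a regulator of growth arrest, and Ddit4 (-0.990), an inhibitor of mTORC1. These correlations rest on the gap between P3 and the other groups and say little about variation within a group. The size of the difference varied widely among them: the means in fed and P3 were 11.15 and 8.95 for Adtrp, 9.66 and 5.08 for Inhbc, and 9.75 and 4.75 for Dio1.

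Car3 is known in rat liver as a male-biased gene that depends on the male pattern of growth hormone. Of 6 measured of 13 other male-biased genes listed, 5 were called lower at P3 than in fed liver and 1 was called higher (19.3% of all rows were called). The 1 higher was Akr1c14 (0.47 ± 0.16, limma adjusted p = 0.049), a call lost in 21 of 29 alternative settings. The lowest were Dhrs7l1 (-7.18 ± 0.68) and Cyp2c11 (-6.30 ± 0.50), a male-specific steroid hydroxylase. Of 7 measured of 10 female-biased genes listed, 1 was called higher (Cux2, 0.95 ± 0.21) and none lower. The medians of the 2 lists were -4.20 and -0.28, against 0.03 over all rows. The lists were written with the falls of several members already known, so they are no independent evidence. Whether growth hormone had a part in the Car3 differences was not tested. At the re-fed stage Dhrs7l1 had a mean of 6.04 against 10.47 in fed liver, while Cyp2c11 had 12.14 against 12.25 and Car3 11.79 against 12.39.

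Among the 6 family members other than Car3, 1 was called in P2 against fed (12.7% of all rows were called), 2 in P3 against fed (19.3%), 4 in P3 against P2 (22.0%) and 4 in P3r2 against P3 (18.4%). None was called in P3r2 against fed (2.72%), where 0 of the 6 had an unadjusted limma p below 0.05. In P3r2 against P2, 2 were called (15.6%), Car2 higher and Car8 lower. All 4 calls of P3 against P2 were falls (8.53% of all rows fell): Car4, Car5a, Car8 and Car14. All 4 of P3r2 against P3 were rises (10.5% rose): Car2, Car5a, Car5b and Car14. Only Car5a and Car14 were thus called in both. The arrays of the 2 groups did not overlap for 3 of the 6 in P2 against fed (19.2% of all rows), 1 in P3 against fed (19.6%), 4 in P3 against P2 (21.9%), 3 in P3r2 against P3 (22.8%), 2 in P3r2 against fed (12.5%) and 3 in P3r2 against P2 (23.9%). The median difference of the 6 was -0.76 in P3 against P2 and 0.92 in P3r2 against P3, against -0.03 over all rows in both.

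Car14 (transcript cluster 7211598), a membrane enzyme whose active site faces outward and which liver carries on hepatocyte membranes, fell at phase 3 and came back. Its log2 signals were 8.68, 7.90, 8.47 and 8.67 in fed and 8.64, 8.40, 8.94 and 8.59 at P2. They were 7.60, 7.21, 4.46 and 6.86 at P3 and 8.73, 8.84, 8.91 and 8.91 in P3r2. All P3 arrays were below all others, and P3 replicate 3 was far below the other 3. Car14 fell by 1.90 ± 0.47 in P3 against fed (limma adjusted p = 0.0084) and fell by 2.11 ± 0.47 in P3 against P2 (adjusted p = 0.0038). It rose by 2.32 ± 0.47 with re-feeding (adjusted p = 0.0021). P2 and fed overlapped (0.21 ± 0.47, adjusted p = 0.80). Without P3 replicate 3 the difference of Car14 in P3 against fed was -1.21 ± 0.20, with an adjusted p of 5.0e-04, and fitted on the fed and P3 arrays alone the adjusted p was 0.073.

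Car5a (transcript cluster 7186273) and Car5b (transcript cluster 7374731) are the mitochondrial members, and Car5a is the one typical of liver. The log2 signals of Car5a were 7.14, 6.62, 6.93 and 7.15 in fed and 7.43, 7.79, 7.76 and 7.68 at P2. They were 6.94, 6.83, 5.69 and 5.99 at P3 and 7.48, 7.32, 7.47 and 7.20 in P3r2. Every P2 array was above every fed array and every P3 array, but fed and P3 overlapped. Car5a fell by 1.30 ± 0.23 from P2 to P3 (adjusted p = 6.7e-04), a 2.46-fold difference, and rose by 1.00 ± 0.23 with re-feeding (adjusted p = 0.0053). P2 against fed came to 0.70 ± 0.23 and missed the threshold (adjusted p = 0.057), although 8 of 29 alternative settings called it (adjusted p from 0.011 to 0.12). P3 against fed came to -0.60 ± 0.23 (adjusted p = 0.089), or -0.37 without P3 replicate 3. It was called in 4 of 29 settings, among them the fits without P3 replicate 1 or 2 (adjusted p = 0.020 and 0.034). The means of the 2 phases thus lay on opposite sides of fed liver, with neither step called.

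The log2 signals of Car5b, the mitochondrial form of wider tissue range, were 4.67, 3.88, 4.64 and 4.83 in fed and 4.06, 4.24, 3.99 and 3.98 at P2. They were 3.68, 4.07, 3.12 and 4.38 at P3 and 4.58, 4.77, 4.60 and 4.62 in P3r2. These signals lie near or below the median signal of an array. Car5b rose by 0.83 ± 0.23 from P3 to P3r2 (adjusted p = 0.018), with no overlap, a call that missed the threshold without P3 replicate 3 or P3r2 replicate 2 (adjusted p = 0.054 and 0.053). Its call in P3 against fed (-0.70 ± 0.23, adjusted p = 0.046) sat at the threshold, the groups overlapped, and it was lost in 18 of 28 alternative settings, among them each fit without fed replicate 1, 3 or 4, without P3 replicate 1 or 3, or without any 1 array of P2 or P3r2 (adjusted p up to 0.18). Car5a and Car5b were not ordered alike: at P2 the mean of Car5a was the highest of its 4 groups, while that of Car5b was below fed and P3r2 (fed against P2 adjusted p = 0.22 for Car5b).

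Car8 (transcript cluster 7283520), which lacks a working catalytic site and binds the inositol trisphosphate receptor, rose at phase 2 and not at phase 3. Its log2 signals were 8.28, 7.07, 8.28 and 8.30 in fed and 8.87, 9.31, 9.32 and 9.52 at P2. They were 7.81, 7.66, 8.78 and 8.17 at P3 and 7.97, 8.07, 8.04 and 7.75 in P3r2. All P2 arrays were above all others, and fed replicate 2 was low among fed livers. Car8 rose by 1.27 ± 0.27 in P2 against fed (adjusted p = 0.0083), a 2.42-fold difference. It fell by 1.15 ± 0.27 from P2 to P3 (adjusted p = 0.0063). The means of P3, fed and P3r2 lay within 0.15 of each other and overlapped (P3 against fed adjusted p = 0.85, P3r2 against fed 0.99). Without fed replicate 2 the rise of Car8 at P2 was 0.97 ± 0.22 (adjusted p = 0.012). Over all 29 alternative settings the rise of Car8 ran from 0.88 to 1.41 and was called in each.

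Car2 (transcript cluster 7206103), the fast cytosolic enzyme that red cells and bile duct cells hold in quantity, varied widely within the fasted groups. Its log2 signals were 6.18, 5.99, 6.49 and 6.12 in fed and 4.68, 5.11, 5.99 and 5.77 at P2. They were 5.54, 5.28, 4.29 and 6.58 at P3 and 6.47, 7.23, 7.04 and 6.09 in P3r2. The P3 arrays run from the lowest of all 16 to above every fed liver. Car2 came to -0.81 ± 0.40 in P2 against fed (adjusted p = 0.19) and -0.78 ± 0.40 in P3 against fed (adjusted p = 0.23, or 0.037 without P3 replicate 4 and 0.58 without P3 replicate 3). It rose by 1.29 ± 0.40 from P3 to P3r2 (adjusted p = 0.034), a call lost in 10 of 29 alternative settings, among them each fit without 1 of P3 replicates 1 to 3 or of P3r2 replicates 1 to 3 (adjusted p up to 0.11). Car2 also rose by 1.32 ± 0.40 in P3r2 against P2 (adjusted p = 0.037), a call lost in 9 of 29 settings, among them each fit without P2 replicate 1, 2 or 4 or P3r2 replicate 1, 2 or 3 (adjusted p up to 0.11).

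Of 12 listed erythroid markers 3 had a row, and Hbb-b1, a beta globin, had means of 9.52 in fed, 8.78 at P2, 7.45 at P3 and 6.89 in P3r2 (P3 against fed -2.07 ± 0.49, adjusted p = 0.0065). Slc4a1, the anion exchanger of the red cell membrane, had means of 5.90, 5.58, 5.61 and 6.16 in the same order of groups, and Epb42, a protein of the red cell skeleton, had 3.05, 2.75, 2.82 and 2.75. The order of group means was the same for Slc4a1 as for Car2, with P3r2 highest, while Hbb-b1 was lowest in P3r2. For both Slc4a1 and Car2 the means of P3 and P2 were only 0.03 apart. Slc4a1 was not called in any comparison (limma adjusted p from 0.076 to 0.95). The mean of the 3 lay between 5.90 and 6.58 in fed, 5.39 and 6.31 at P2, 5.17 and 5.50 at P3, and 4.98 and 5.48 in P3r2. Of 5 measured of 8 bile duct markers none was called in P3r2 against P3 or P3r2 against P2 (18.4% and 15.6% of all rows were called). In these comparisons 0 and 1 of the bile duct markers had an unadjusted limma p below 0.05. Their mean lay between 4.20 and 4.76 in fed, 4.43 and 4.58 at P2, 4.41 and 4.79 at P3, and 4.65 and 4.97 in P3r2, so it reached its highest values in the group where Car2 was highest. The part of red cells and bile duct cells in the Car2 differences was not tested.

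Car2, Car3, Car1 and Car13 lie next to each other, in this order, among the protein-coding genes of chromosome 2 in the RefSeq annotation of assembly GRCr8. Of these neighbours Car2 and Car3 have a row of their own on the array. P3 replicate 4, the lowest Car3 array (3.92), was the highest Car2 array of its group (6.58). P3 replicate 3, the next lowest for Car3 (4.38), was the lowest Car2 array (4.29), so the P3 arrays showed no common order of these neighbours.

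Car4 (transcript cluster 7070623), an enzyme anchored by lipid to the outer membrane face of endothelial and other cells, was dim in all groups. Its log2 signals ran from 3.54 to 3.76 in fed, from 3.73 to 3.90 at P2, from 3.28 to 3.59 at P3 and from 3.23 to 3.80 in P3r2. Its call in P3 against P2 (-0.38 ± 0.12, adjusted p = 0.03) was lost in 7 of 28 alternative settings, among them each fit without P2 replicate 1, 2 or 4 or without P3 replicate 1, 2 or 4 (adjusted p up to 0.094). Of 3 measured of 8 endothelial markers 1 was called in P3 against fed (19.3% of all rows were called). It was Fcgr2b, an antibody receptor of sinusoidal cells (0.75 ± 0.20, adjusted p = 0.014, or 0.051 without P3 replicate 4). The part of cell composition in Car4 was not tested.

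The genes of closest pattern differed among these members. Over the 16 arrays, Car14 ran most like Otc (r = 0.988), the urea cycle enzyme ornithine transcarbamylase, and Prkd3 (0.975), a protein kinase D. Car5a ran most like Slc27a2 (0.963), a very long chain acyl-CoA synthetase, and Prodh2 (0.961), hydroxyproline dehydrogenase. Car8 ran most like Med28 (0.930), a Mediator subunit, and St3gal4 (0.922), a sialyltransferase. Car5b ran most like Rngtt (0.930), the mRNA capping enzyme, and Mmaa (0.928), a protein of vitamin B12 handling. For Car2 the closest were Tstd2 (0.847) and Ranbp6 (0.835), and for Car4 Syngr1 (0.875) and Lag3 (0.810). Otc, like Car14, varied most at P3, with an SD of 2.13 there against 0.49 in fed. The genes named were picked as the 2 highest of 8250 compared. Differences between groups and single far arrays weigh in these correlations, such as P3 replicate 3 for Car14 (4.46) and fed replicate 2 for Car8 (7.07). Whether the genes are regulated together was not tested.

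**Figure D2:**
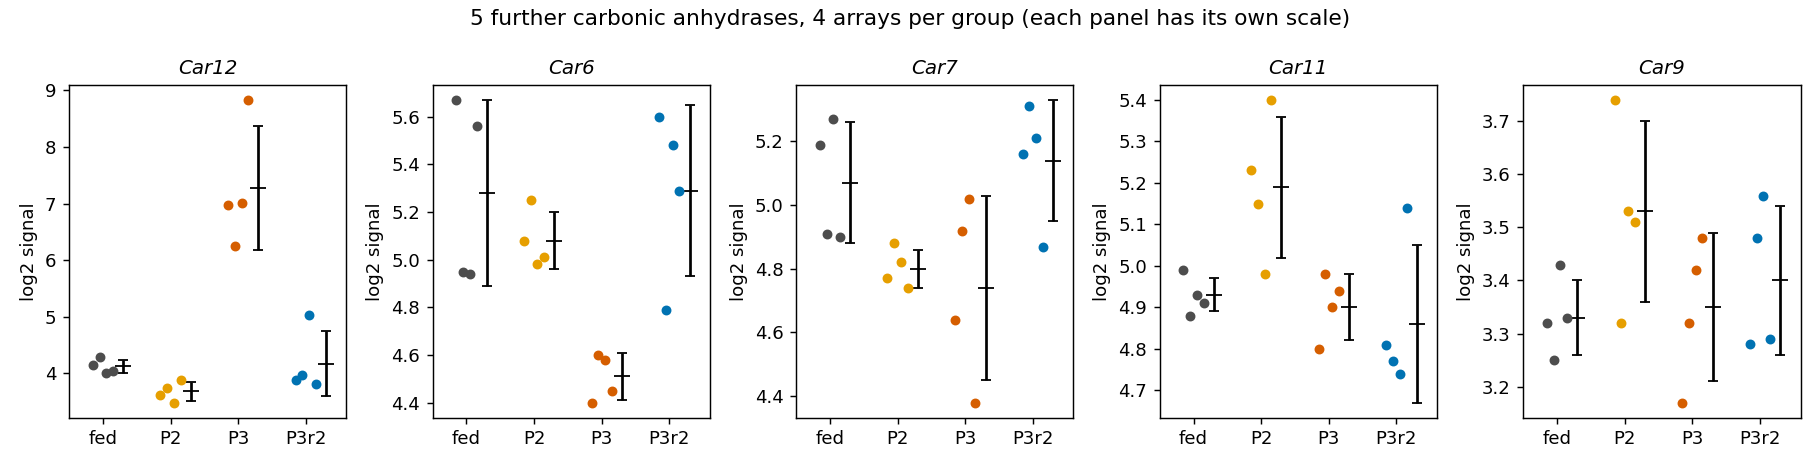
Log2 signal (vertical axis, own scale in each panel) of 5 carbonic anhydrases outside the list, in the 4 groups (horizontal axis). Points are single arrays and bars are the group mean with its SD over 4 arrays. Car12 lay between 6.25 and 8.83 in P3 and at 5.03 or below in every other array.

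A further 5 carbonic anhydrases have a row of their own, and 1 of them moved against Car3. Car12 (transcript cluster 7337444), a membrane enzyme with its active site outside the cell, had log2 signals of 4.15, 4.28, 4.01 and 4.04 in fed and 3.62, 3.73, 3.48 and 3.88 at P2. They were 6.97, 6.25, 7.01 and 8.83 at P3 and 3.87, 3.97, 5.03 and 3.80 in P3r2. All P3 arrays lay above all others, while the fed and P2 arrays all lay below an array's median signal. Car12 rose by 3.15 ± 0.40 in P3 against fed (adjusted p = 3.3e-05), at least 8.85-fold since the fed signal is not known to be above background, and fell by 3.10 ± 0.40 with re-feeding (adjusted p = 4.2e-05). Without P3 replicate 4 the rise of Car12 over fed was 2.63 ± 0.26 (adjusted p = 7.2e-06). P2 did not overlap with fed but was not called (-0.44 ± 0.40, adjusted p = 0.5). Dcn, decorin, which fibroblasts and stellate cells make, rose in the same comparison (3.80 ± 0.39), while the stellate marker Lrat (-1.28 ± 0.22) and the pericyte receptor Pdgfrb (-1.22 ± 0.23) fell. The mean of the 6 measured of 8 stellate markers lay between 6.47 and 7.31 in fed and between 7.11 and 7.85 at P3. Their part in the rise of Car12 was not tested.

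Car6 (transcript cluster 7293294), the secreted enzyme of saliva, had a lower signal at phase 3. Its log2 signals were 5.67, 4.95, 4.94 and 5.56 in fed and 5.08, 5.25, 4.98 and 5.01 at P2. They were 4.40, 4.60, 4.58 and 4.45 at P3 and 5.60, 4.79, 5.48 and 5.29 in P3r2. The P3 arrays were below all others. Some genes listed as silent in liver had signals as high, such as Prm2, a sperm protamine, with means of 5.75 in fed and 6.12 at P3. The mean of the 20 measured silent genes lay lower, between 3.62 and 3.76 in fed and between 3.69 and 4.05 at P3. None of the 20 was called in P3 against fed (19.3% of all rows were called), and 1 had an unadjusted limma p below 0.05. Whether any Car6 signal lies above background is not known here. Car6 fell by 0.77 ± 0.19 in P3 against fed (adjusted p = 0.0066) and rose by 0.79 ± 0.19 with re-feeding (adjusted p = 0.0064). Car7, a cytosolic enzyme of brain, Car9, a membrane enzyme induced by low oxygen, and Car11, a secreted relative without catalytic activity, were not called in any of the 6 comparisons, in which 0 to 2 of the 3 had an unadjusted limma p below 0.05. Their group means ranged from 4.74 to 5.14, from 3.33 to 3.53 and from 4.86 to 5.19.

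**Figure D3:**
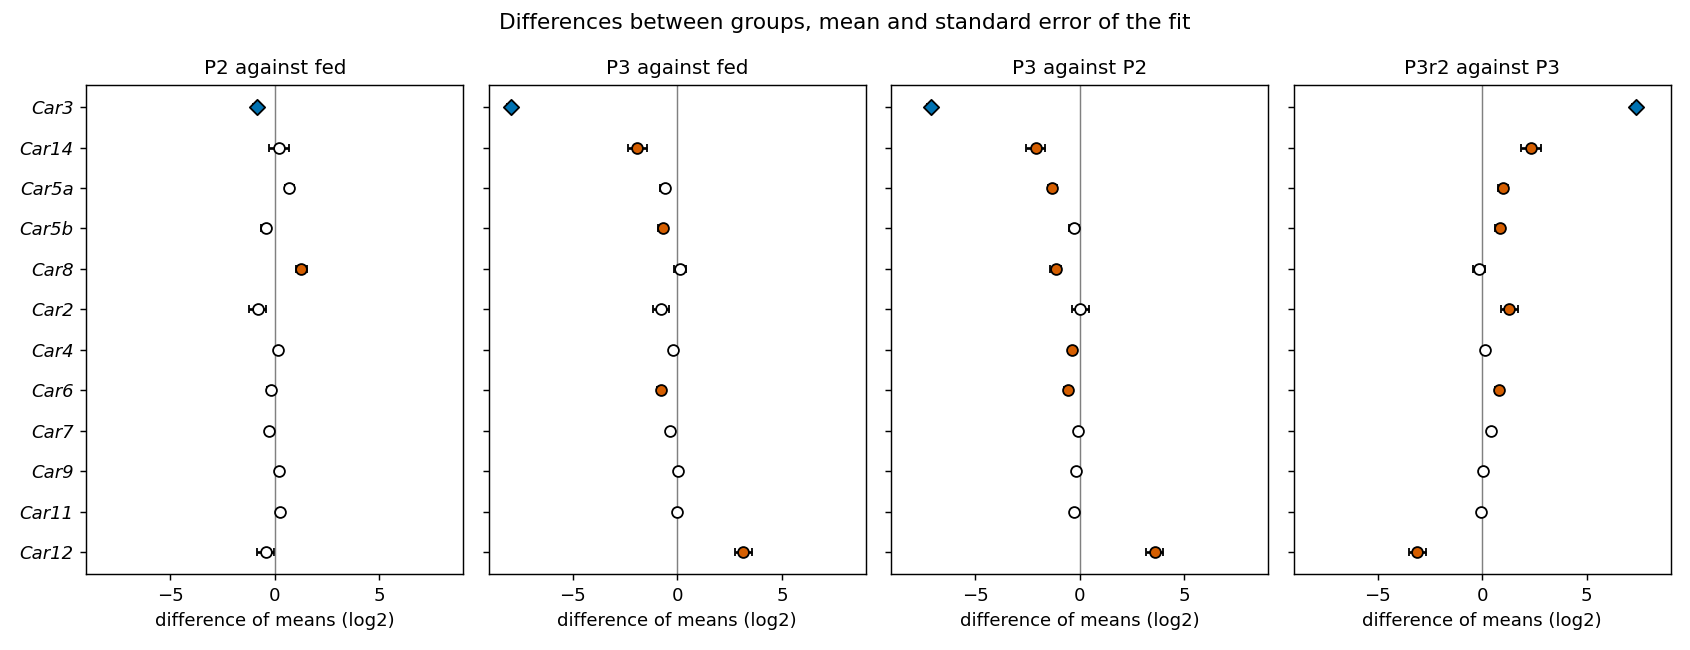
Difference of group means in log2 units (horizontal axis) with the standard error of the fit, for 12 carbonic anhydrases (rows) in 4 comparisons (panels). Orange circles passed an adjusted p of 0.05, white circles did not, and the blue diamond is Car3, which was not tested. Car3 stands at -7.94 and Car12 at 3.15 in P3 against fed.

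The promoters of the 3 family members with the clearest tested change at phase 3 or between phases are shown so that they can be read beside the values. They are the 250 bases before the annotated start, 5′ to 3′ on the gene's strand, from RefSeq (GRCr8). Of the 12 carbonic anhydrases with a row, 8 are in that promoter table. Car14 lies at chr2:186138165-186138414 and Car5a at chr19:66911487-66911736, both on the minus strand, and Car12 at chr8:76169565-76169814 on the plus strand. Capitals mark a match to TGANNTCA, a loose form of the palindrome that ATF and CREB family factors can bind. Binding was not tested.

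Car14: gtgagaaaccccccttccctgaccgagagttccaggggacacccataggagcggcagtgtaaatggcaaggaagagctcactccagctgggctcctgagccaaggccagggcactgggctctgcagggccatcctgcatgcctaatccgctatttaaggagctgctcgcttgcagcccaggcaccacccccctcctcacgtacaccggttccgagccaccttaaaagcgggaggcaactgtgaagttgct

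Car5a: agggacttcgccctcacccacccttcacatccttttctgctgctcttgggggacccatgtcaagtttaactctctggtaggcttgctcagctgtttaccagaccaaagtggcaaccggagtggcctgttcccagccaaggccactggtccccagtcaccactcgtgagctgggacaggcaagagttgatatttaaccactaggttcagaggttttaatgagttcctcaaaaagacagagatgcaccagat

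Car12: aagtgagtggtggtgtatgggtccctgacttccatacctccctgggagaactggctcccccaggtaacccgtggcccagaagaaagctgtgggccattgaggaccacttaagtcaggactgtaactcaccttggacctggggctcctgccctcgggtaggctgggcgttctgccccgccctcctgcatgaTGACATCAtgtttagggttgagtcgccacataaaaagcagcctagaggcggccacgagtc

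Both strands of these windows were searched for 7 short motifs, each given with its share of the 33469 promoters of this length in the table. TGANNTCA is in 13.2% of them and was added to the search after these sequences had been read. The TATA box, as TATAAA, is in 12.9%. The CCAAT box is in 34.0% of promoters. The STAT5 pattern TTCNNNGAA is in 7.67%. The glucocorticoid receptor motif AGAACA is in 17.5% of promoters. The cyclic AMP motif TGACGT, which can overlap the first motif, is in 6.95%. The HNF1 motif GTTAAT is in 6.45% of promoters. The single match in the Car12 window lies 60 to 53 bases before the start. The Car14 and Car5a windows hold none of the 7, which says only that these letters are not there.

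**Figure D4:**
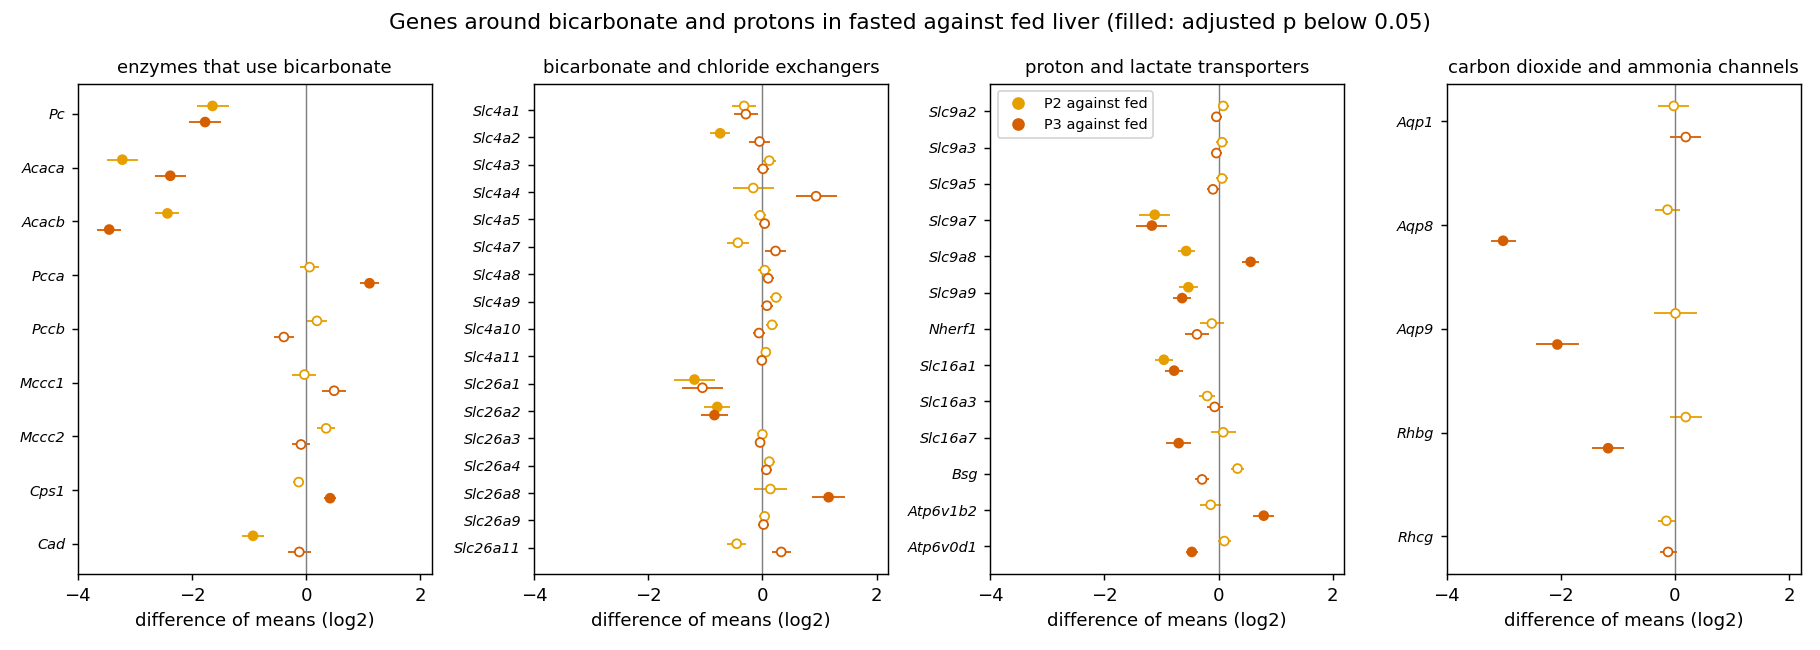
Difference in log2 units (horizontal axis) from fed liver at P2 (yellow) and P3 (red), with the standard error of the fit, for genes of 4 lists around bicarbonate and protons (panels). Filled points passed an adjusted p of 0.05. The carboxylases Pc, Acaca and Acacb were below 0 in both phases, and the channels Aqp8, Aqp9 and Rhbg at P3.

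Genes that use or move bicarbonate, protons and carbon dioxide were looked at from lists drawn up by function, with earlier results of these arrays known. Of 9 measured enzymes that fix bicarbonate, 4 fell and none rose in P2 against fed (12.7% of all rows were called), and 2 rose and 3 fell in P3 against fed (19.3%). Pc, pyruvate carboxylase, fell by 1.64 ± 0.28 at P2 (adjusted p = 0.0022) and fell by 1.77 ± 0.28 at P3 (adjusted p = 2.5e-04). Acaca and Acacb, the acetyl-CoA carboxylases, fell by 3.22 ± 0.27 and 2.43 ± 0.21 at P2 and by 2.38 ± 0.27 and 3.45 ± 0.21 at P3. Pcca, a subunit of propionyl-CoA carboxylase, rose by 1.11 ± 0.16 at P3. Pccb, the other subunit of that enzyme, came to -0.39 ± 0.17 at P3 and was not called (adjusted p = 0.14). The median difference of the 9 was -0.13 at P2 and -0.12 at P3, against 0.05 and 0.03 over all rows. Cps1, the carbamoyl phosphate synthase of the urea cycle, rose by 0.42 ± 0.10 at P3 (adjusted p = 0.0077), a call lost after quantile normalization (0.26 ± 0.10, adjusted p = 0.086).

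Of 17 measured exchangers of bicarbonate, chloride and sulfate, few were called, near or below the share over all rows (12.7% at P2 and 19.3% at P3). At P2, 3 fell (Slc26a1, Slc26a2 and Slc4a2, by 1.19 ± 0.36, 0.79 ± 0.23 and 0.74 ± 0.18). At P3, 1 rose, Slc26a8 (1.16 ± 0.29, adjusted p = 0.0094), and 1 fell, Slc26a2 (-0.84 ± 0.23, adjusted p = 0.017). The P2 call of Slc26a1 was lost without any 1 of the fed or P3r2 arrays, P2 replicate 2 or 4, or P3 replicate 4 (adjusted p up to 0.13). The P2 call of Slc26a2 was lost without fed replicate 1, 3 or 4 or P2 replicate 2 or 4 (adjusted p up to 0.12). Its P3 call was lost without fed replicate 1 or 4 or P3 replicate 3 (adjusted p up to 0.058). The medians of the list were 0.00 and 0.02. Of 13 measured proton and lactate transporters, 4 fell at P2 (12.7% of all rows were called), and 2 rose and 5 fell at P3 (19.3%), with medians of -0.12 and -0.29. Slc16a1, the monocarboxylate carrier for lactate and ketone bodies, fell by 0.96 ± 0.16 at P2 (adjusted p = 0.002) and by 0.78 ± 0.16 at P3 (adjusted p = 0.0024). Of the 2 measured subunits of the vacuolar proton pump, Atp6v1b2 rose by 0.79 ± 0.18 at P3 (adjusted p = 0.0046) and Atp6v0d1 fell by 0.47 ± 0.11 (adjusted p = 0.0062).

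Of 5 measured channels that pass gases or ammonia, 3 fell at P3. Of the 5, none was called in P2 against fed (12.7% of all rows were called), where 0 had an unadjusted limma p below 0.05. The number that fell was 3 in P3 against fed (19.3% of all rows were called) and 3 in P3 against P2 (22.0%). In P3r2 against P3, 3 rose (18.4% of all rows were called). Aqp8, a water and ammonia channel, fell by 3.01 ± 0.22 (adjusted p = 1.8e-07) and rose by 2.45 ± 0.22 with re-feeding. Aqp9, the glycerol channel of hepatocytes, fell by 2.06 ± 0.38 (adjusted p = 8.7e-04) and rose by 2.49 ± 0.38. Rhbg, an ammonia channel of hepatocytes around the central vein, fell by 1.17 ± 0.28 (adjusted p = 0.0064) and rose by 1.20 ± 0.28. Aqp1 and Rhcg, with differences of 0.19 ± 0.27 and -0.12 ± 0.15 in P3 against fed, were not called. The median of the 5 was -1.17 in P3 against fed, against 0.03 over all rows.

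Car3 is known to be richest in hepatocytes near the central vein. Of 10 measured of 12 markers of that zone all were called in P3 against fed (19.3% of all rows were called). Of these, 4 were higher and 6 lower, so they did not move one way. Slc1a2, a glutamate transporter, rose by 3.72 ± 0.37 and Cyp1a2, a cytochrome P450, fell by 3.02 ± 0.50. Of 10 measured of 12 markers of the zone around the portal vein, 7 were called higher and 3 lower in the same comparison. The medians were -0.93 and 0.88. The part of zonation in the Car3 difference was not tested.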

How the data were processed

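The deposited table holds log2 signals per transcript cluster of Affymetrix Rat Exon 1.0 ST arrays, deposited by the authors, whose software was GCOS 1.4 and, from Affymetrix, Expression Console 1.1 (per the submitters' processing notes). How background was corrected, arrays normalized and probes summarised is not given in the sources used here, and the base of the logarithm was inferred from the range of values (0.84 to 13.6). Values were used as deposited. Of 19418 rows, 534 with identifiers below the first annotated one were left out. Of the 18884 tested, 13327 carry 1 gene symbol, 620 several and 4937 none. Symbols come from the array's annotation. Groups follow the sample titles.

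The model was fitted with limma 3.58.1 in R 4.3.3: a mean per group over 16 arrays, 6 comparisons, two-sided moderated tests, Benjamini-Hochberg adjustment over all rows tested. It was also tested on simulated data. Members, lists and alternatives were chosen with earlier results of these data known. Named genes are all members, all other carbonic anhydrases with a row, up to 4 called genes per list and comparison by size, defining markers of cell types, a few genes that complete a list, and the genes of like pattern by Pearson correlation. The labels do not say whether animals were housed or killed together, so p-values measure the spread between these animals. The number of arrays limits the precision. Figures were drawn with matplotlib 3.10.9.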

Additional observations from a re-analysis of the deposited data

Results flagged for a closer look

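In 3 of 48 sets of 4 arrays (12 carbonic anhydrases in 4 groups), 1 array stood so far from the other 3 that its gap exceeded 0.829 of the whole range. Chance alone gives about 1 such set in 20. Car8 in fed replicate 2 was 7.07, where the other 3 fed arrays lay between 8.28 and 8.30. Car12 in P3r2 replicate 3 was 5.03, where the other 3 lay between 3.80 and 3.97. Car11 in P3r2 replicate 4 was 5.14, where the other 3 lay between 4.74 and 4.81.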

How the results depend on the processing

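Some results were recomputed under 13 other settings and with each of the 16 arrays left out in turn. They were the counts of rows and members called and the differences of the carbonic anhydrases and of part of the named genes. Counts and medians of the lists, overlaps between groups, correlations, far arrays and promoter motifs were not recomputed. Every Car3 difference kept its sign: without single arrays, P2 against fed ran from -0.95 to -0.71, P3 against fed from -8.05 to -7.76, P3 against P2 from -7.23 to -6.92, P3r2 against P3 from 7.16 to 7.45, P3r2 against fed from -0.70 to -0.52 and P3r2 against P2 from 0.11 to 0.35. Over single genes, no called difference reversed in any setting, 213 values lost a call and 87 gained one. Where a count below moved, the cause was not tested unless stated.

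Over all rows, 2400 were called in P2 against fed, 3648 in P3 against fed, 4154 in P3 against P2, 3474 in P3r2 against P3, 514 in P3r2 against fed and 2954 in P3r2 against P2. Without single arrays these counts ran, in the same order, from 1200 to 3013, 3004 to 3821, 3334 to 4609, 2874 to 3763, 242 to 624 and 1637 to 3500. At an adjusted p of 0.01, which calls fewer rows by construction, they were 819 in P2 against fed, 2618 in P3 against P2, 2294 in P3r2 against P3, 169 in P3r2 against fed and 1180 in P3r2 against P2. The fit on the P2 and fed arrays alone called 1567, and array weights gave 1467 in P3r2 against fed and 4817 in P3r2 against P2.

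Of the 6 members other than Car3, the 1 called in P2 against fed became 3 with array weights and 2 with quantile normalization, with those 2 groups alone, without dim rows, without the 3 arrays of narrow spread and with the trend with gene span taken out. The 2 called in P3 against fed became 1 with array medians centred, without dim rows, at 0.01 and with the replicate block, and 0 with those 2 groups alone. At 0.01 the calls were 2 in P3r2 against P3 and 1 in P3r2 against P2. Without single arrays, calls ran from 1 to 2, 1 to 3, 3 to 4, 2 to 4, 0 to 0 and 1 to 3 in the order above. Leaving out dim rows drops Car4, Car5b and Car9. The share of all rows called is not printed here for each of these settings. The counts therefore do not show whether the members changed more than other rows did.

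Replicate numbers showed no sign of pairing the animals: only 3 of 16 arrays correlated best with their own number. This check cannot exclude pairing. With the replicate block, 1964 rows were called in P2 against fed, 3423 in P3 against fed and 3895 in P3 against P2, and the members called were 1, 1 and 4, with 1 in P3r2 against P2. Without detection calls, signal over background is not known, which limits dim genes most.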
